A study of Rattus norvegicus with 8 samples.

Results

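The genes described here encode the receptors through which striatal cells respond to glutamate, together with the auxiliary subunits that bind these receptors. They were chosen by name, with earlier results of these data known. The list holds 34 gene symbols of the AMPA, kainate, NMDA, delta and metabotropic receptor families and of their auxiliary proteins. Of these, 33 had a row among the 17337 genes of the count table, and all 33 passed the filter on low counts that left 12014 genes for testing. Gsg1l, an auxiliary subunit of AMPA receptors, had no row and was not analysed here. Messenger RNA was sequenced from the striatum of 8 wild-type male Sprague-Dawley rats. In 1 group, 4 rats pressed a lever for intravenous METH (0.05 mg/kg per infusion) in sessions of 2 h per day over 16 days, and in the other, 4 rats self-administered saline on the same schedule after the same food training and catheter surgery. Per the methods of the study, more rats self-administered, and 4 of each group with a stable lever response were chosen for plasma sampling. Whether these were the sequenced rats is not stated there. The age of the rats and the time between the last session and tissue collection are not given in the sources used here, and both groups received ketamine, a blocker of NMDA receptors, with xylazine before the brains were taken. METH was compared to saline to find which transcripts of the glutamate receptor system differed after drug taking.

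Glutamate reaches the striatum mainly from the cortex and thalamus, whose axons end on the spines of the projection neurons. AMPA receptors carry most of the fast current, NMDA receptors admit calcium when the cell is already depolarized, and kainate receptors act on both sides of the synapse. Metabotropic receptors signal through G proteins, and auxiliary subunits set the trafficking and gating of AMPA and kainate receptors. In bulk tissue, fewer cells of a type and less RNA per cell cannot be told apart.

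The libraries held between 18135939 and 21211920 counts, and no pair of rats within a group agreed within counting noise (a chi-square of 10.1 to 27.6 for each degree of freedom). Values are given in CPM, counts scaled to the library's total after correction for its composition, which are not divided by gene length and so are not compared between genes. Projection neuron markers, such as Ppp1r1b, Drd1 and Penk, were present in every rat, and their sum over 10 genes ranged from 14820 to 15666 CPM in saline rats and from 15701 to 19677 CPM in METH rats. Ppp1r1b alone gave 6785 to 7594 and 7456 to 10288 CPM of these sums, and the sums of the other 9 markers overlapped (7748 to 8710 and 8246 to 9389 CPM). The sum of 6 markers of neurons in general ranged from 2419 to 2880 CPM in saline rats and from 1937 to 2397 CPM in METH rats, and without Snap25 the sums of the other 5 overlapped (1299 to 1601 and 1251 to 1421 CPM). None of these genes was called. Snap25 was lower in every METH rat than in any saline rat (log2 fold change -0.52, FDR = 0.0632, quasi-likelihood test). In that test an unadjusted p below 0.05 was found for 3 of the 10 (30%, all higher) and 2 of the 6 (33.3%, all lower). Of all genes tested, 11.1% had such a p. The sum of choroid plexus markers ranged from 3.95 to 5.55 CPM in saline rats and from 5.62 to 8.91 CPM in METH rats. Of its genes, Ttr and Kl did not pass the filter on low counts. Folr1 and Clic6 each overlapped between the groups and were not called. The sums for astrocytes, oligodendrocytes, their precursors, microglia and endothelial cells overlapped between the groups. Of these markers, the microglial receptor gene Cx3cr1 was called lower in METH rats (log2 fold change -0.73, FDR = 0.0408, quasi-likelihood test). An unadjusted p below 0.05 in that test was found for 1 of 8 astrocyte markers (higher) and 0 of 6 of oligodendrocytes. For precursors it was 2 of 4, for microglia 2 of 6 and for endothelial cells 1 of 4, all lower. The astrocyte gene Gjb6 was higher in every METH rat than in any saline rat (log2 fold change 0.44, FDR = 0.137, quasi-likelihood test). METH replicate 3 had the highest projection neuron sum, the lowest general neuron sum and the farthest place on the axis of greatest variance between libraries (39.5, against -24.6 for saline replicate 3 at the opposite end). In saline replicate 1, several markers of cortical glutamatergic neurons were high. Slc17a7 had 1198 counts against 64 to 256 in the other rats, Neurod2 74 against 0 to 4, and Tbr1 69 against 1 to 9. Fezf2 (149 counts against 103 to 188) and Cux2 (323 against 152 to 327) lay inside the range of the other rats. The part of such marker differences in the results below was not tested.

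No glutamate receptor or auxiliary subunit gene was called different between METH and saline rats. Of the 33 members, 0 passed an FDR below 0.05 (the expected share of false calls, from the quasi-likelihood test of edgeR with Benjamini-Hochberg adjustment) with a mean log2 CPM above 1, where 0.516% of all genes tested did (0.449% called higher and 0.0666% called lower in METH rats). The count was also 0 with DESeq2, the likelihood ratio test of edgeR and limma-voom. The lowest FDR of a member in the quasi-likelihood test was 0.249, for Grid1. At an unadjusted p below 0.05, 6 members differed (18.2%), where 11.1% of all genes tested did. Of these, 3 were higher in METH rats (6.26% of all genes tested were) and 3 lower (4.88%). The groups stood apart, with no rat of one inside the range of the other, for 2 members (6.06%), against 6.39% of all genes tested. Cacng7 stood higher in METH rats (3.75% of all genes did) and Grid1 lower (2.65%), so that the share of members was near the background.

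The size of the differences was small for most members. The log2 fold changes of METH over saline lay between -0.72 and 0.52, with a median of -0.06, against a median of -0.01 over all genes tested, and 20 were negative and 13 positive. For 19 members the 95% interval of the log2 fold change lay within 0.5 of zero on both sides (57.6%, against 63.2% of all genes tested), and for 28 members it lay within 1. In counts simulated on these libraries for 11932 genes, the same test called 51 of 100 genes changed by 0.5 on the log2 scale and 93 of 100 changed by 1. These shares depend on how many genes change, which is not known for the real data. Members also varied more within groups than all genes tested (median SD of log2 CPM 0.213 against 0.176), so the shares may not hold for them. The counts behind single values ranged from 9 for Grm8 to 17850 for Grin1, and 6 members had fewer than 100 counts in some rat.

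**Figure D1:**
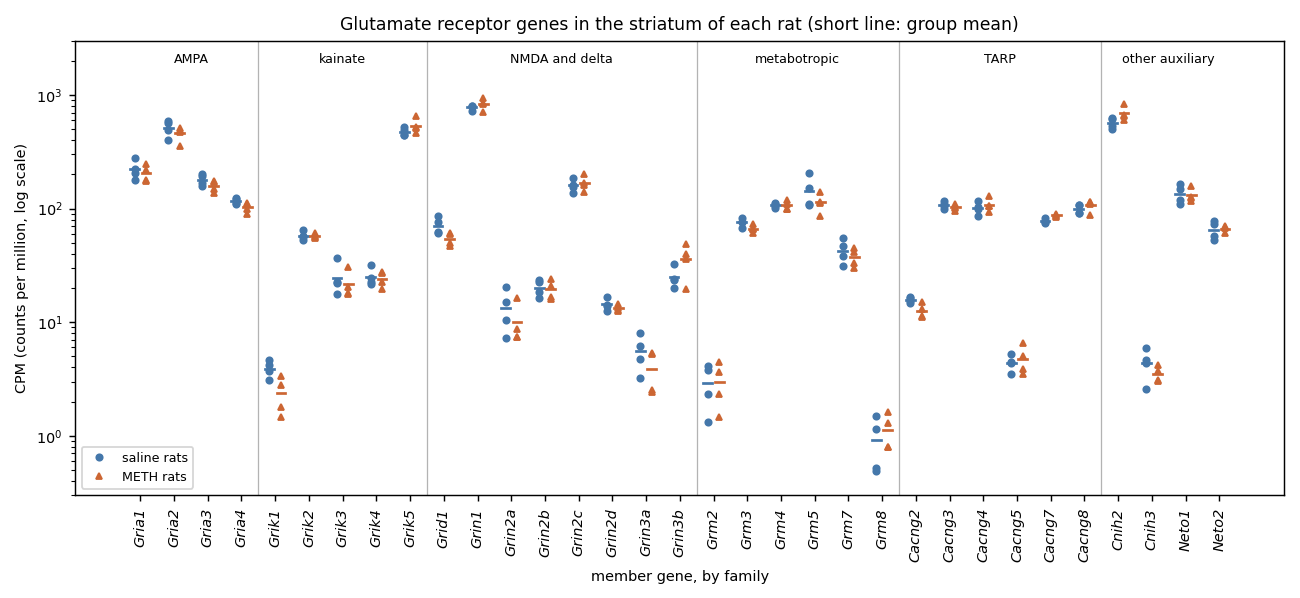
CPM of each member gene (log scale) in the 4 saline rats (circles) and the 4 METH rats (triangles), grouped by receptor family, with a short line at each group mean. The groups overlap for 31 of the 33 members, and the exceptions are Grid1 and Cacng7.

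Among the ionotropic receptors, the 4 AMPA receptor genes, which encode the pore-forming subunits, were all at lower means in METH rats, and none passed the test. Gria2 encodes the subunit whose edited form keeps the channel closed to calcium. Its level was 489, 404, 585 and 564 CPM in saline rats 1 to 4 and 474, 496, 358 and 514 CPM in METH rats 1 to 4. The groups overlapped, with saline rat 3 highest and METH rat 3 lowest. Its log2 fold change of -0.15 had a standard error of 0.13 and an FDR of 0.673 (quasi-likelihood test). Gria1 averaged 221 ± 41.6 CPM with saline and 204 ± 33.8 CPM with METH, and Gria3 averaged 179.8 ± 20.3 and 158 ± 18.7 CPM (SD, n = 4 each). For Gria4 the means were 117 ± 7.33 and 103 ± 10.6 CPM (SD, n = 4 each). The difference of -0.18 in log2 had a 95% interval from -0.36 to 0.01. Without METH rat 3 the log2 fold change was -0.06 for Gria1 and -0.05 for Gria2, and without saline rat 3 it was 0.01 and -0.08. Without both rats, Gria1 and Gria2 turned to the other direction (0.07 and 0.03). The pair was picked after the values were seen. Leaving out a high saline rat and a low METH rat moves the difference upwards in any case, here and in similar members below. The share of Gria2 in the family was close in both groups: it took 49.6% ± 1.45 (SD, n = 4) of the Gria1 to Gria4 counts of a saline rat and 49.6% ± 2.22 (SD, n = 4) of those of a METH rat.

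The kainate receptor genes differed in direction. Grik1, which encodes a subunit that can form channels on its own, was at 4.23, 3.70, 4.64 and 3.07 CPM in saline rats 1 to 4 and at 2.79, 1.81, 1.47 and 3.37 CPM in METH rats 1 to 4. Only METH rat 4 lay above the lowest saline rat. Its log2 fold change of -0.72 was the lowest of all members, with a wide interval from -1.36 to -0.09 (unadjusted p = 0.0276, FDR = 0.392, quasi-likelihood test; exact permutation test, two-sided p = 0.0571). It rested on 26 to 96 counts per rat. Grik5, which encodes a high-affinity subunit that needs a partner of the Grik1 to Grik3 group, was at 487, 519, 441 and 442 CPM in saline rats 1 to 4 and at 509.7, 519, 650.2 and 464 CPM in METH rats 1 to 4. METH rat 3 stood above all others, and the remaining METH rats lay inside the saline range. For Grik5 the log2 fold change was 0.18 (standard error 0.10, FDR = 0.505, quasi-likelihood test) and 0.08 without METH rat 3. Grik2 averaged 57.6 ± 5.11 and 57.5 ± 2.48 CPM (SD, n = 4 each), with a 95% interval of the log2 fold change from -0.18 to 0.18. Grik3 and Grik4 had log2 fold changes of -0.18 and -0.06, and the groups overlapped for each. Without saline rat 3, that of Grik3 was 0.06.

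In the NMDA receptor family, Grin1 encodes the subunit that every NMDA receptor contains. It was at 787, 729, 805 and 801 CPM in saline rats 1 to 4 and at 714, 849.7, 940.0 and 833 CPM in METH rats 1 to 4. METH rat 1 lay below every saline rat and the other three METH rats above every saline rat. The log2 difference was 0.10 (95% interval -0.08 to 0.27, FDR = 0.680, quasi-likelihood test), and 0.03 without METH rat 3. Of the glutamate-binding subunits, Grin2b, Grin2c and Grin2d had log2 fold changes of -0.05, 0.06 and -0.11. Grin2a varied more within groups, from 7.25 to 20.4 CPM in saline rats and from 7.39 to 16.5 CPM in METH rats, and its log2 fold change of -0.41 had an interval from -1.08 to 0.26. It was -0.12 without saline rat 3 and -0.0042 without saline rat 3 and METH rat 3. Grin2a and Grin2b exchange at synapses during development, and their ratio is often followed. The log2 ratio of Grin2a to Grin2b counts was -1.17, -0.81, -0.20 and -0.59 in saline rats 1 to 4 and -1.18, -0.55, -1.13 and -1.25 in METH rats 1 to 4. Saline rat 1 lay among the METH rats and METH rat 2 among the saline rats.

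The glycine-binding subunits Grin3a and Grin3b, which lower the calcium permeability of NMDA receptors, had mean differences of opposite sign. Grin3b was at 19.9, 32.5, 23.5 and 24.0 CPM in saline rats 1 to 4 and at 19.4, 36.2, 48.4 and 39.7 CPM in METH rats 1 to 4. METH rat 1 was the lowest of all 8, while the other three METH rats lay above every saline rat. With 0.52, Grin3b had the highest log2 fold change of all members (standard error 0.22, unadjusted p = 0.0348, FDR = 0.416, quasi-likelihood test). Without METH rat 1 it was 0.73 with an FDR of 0.0743, and without METH rat 3 it was 0.35 with an FDR of 0.770, both by the quasi-likelihood test. Grin3a averaged 5.56 ± 2.07 CPM with saline and 3.89 ± 1.61 CPM with METH (SD, n = 4 each). Its log2 fold change of -0.52 was -0.28 without saline rat 3 and -0.12 without METH rat 3 as well. Within a rat, the log2 ratio of Grin3a to Grin3b counts was between -2.77 and -1.54 in saline rats and between -4.25 and -2.79 in METH rats, a ratio picked after the values were seen and given without a test.

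Grid1 had the lowest p of all members. It encodes a delta receptor that joins the sides of a synapse through secreted cerebellins. Its level was 60.6, 62.1, 85.6 and 75.5 CPM in saline rats 1 to 4 and 49.9, 59.3, 46.5 and 60.6 CPM in METH rats 1 to 4. Every METH rat lay below every saline rat, but the nearest rats, saline rat 1 and METH rat 4, were only 0.0263 CPM apart. On the log2 scale the difference was -0.39 (standard error 0.12, 95% interval -0.66 to -0.13), or 0.762 times the saline level (unadjusted p = 0.00675, FDR = 0.249, quasi-likelihood test; two-sided exact permutation test of log2 CPM, p = 0.0286, the smallest that 4 rats against 4 allow). It stayed negative with each rat left out, between -0.46 and -0.29, with an FDR from 0.204 to 0.550 by the quasi-likelihood test.

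**Figure D2:**
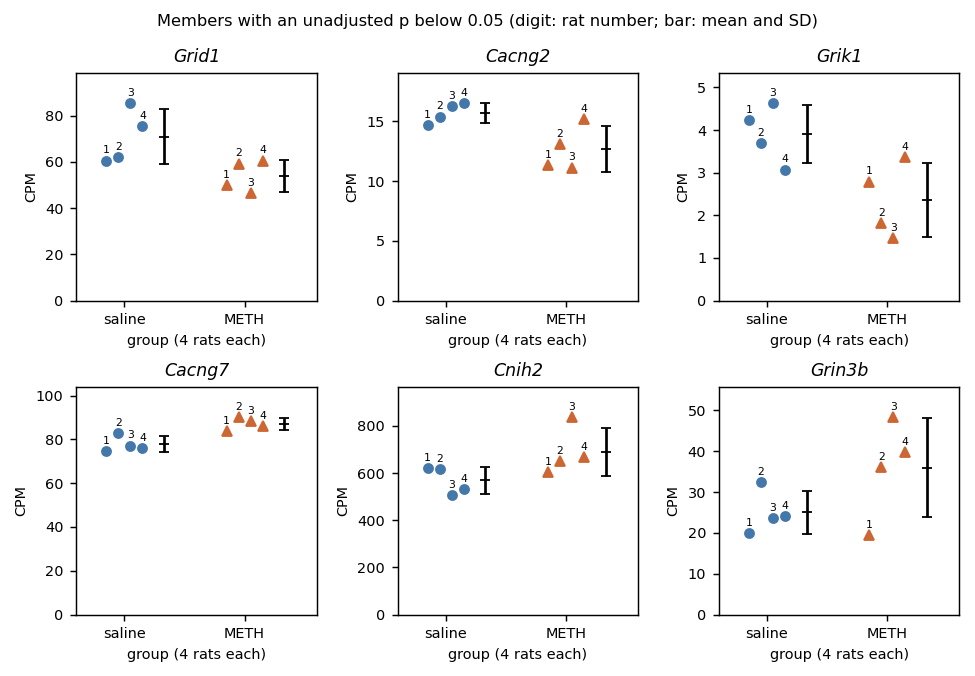
CPM of the 6 members with an unadjusted p below 0.05 in each rat, with the rat number beside each point and the mean and SD (n = 4) of each group as a bar. In Grid1 and Cacng7 the groups separate narrowly, and in the other 4 genes at least 1 METH rat reaches into or past the far side of the saline rats.

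Of the 6 metabotropic receptor genes, Grm5, a receptor coupled to phospholipase C that stands near NMDA receptors in the spine, had the most reads. It was at 109, 110.2, 206 and 151 CPM in saline rats 1 to 4 and at 114, 139.9, 86.4 and 112 CPM in METH rats 1 to 4. Saline rats 3 and 4 were above every METH rat, METH rat 3 was below every saline rat, and the rest overlapped. Its log2 fold change of -0.35 (standard error 0.19, FDR = 0.501, quasi-likelihood test) was -0.12 without saline rat 3 and -0.01 without saline rat 3 and METH rat 3. Grm3, an inhibitory receptor found in astrocytes and neurons, averaged 75.6 ± 5.89 and 66.6 ± 5.23 CPM (SD, n = 4 each). It was just outside the unadjusted threshold, with a log2 difference of -0.18 (p = 0.0539, FDR = 0.456, quasi-likelihood test of edgeR; two-sided exact permutation p = 0.0571). Among the presynaptic inhibitory receptors, Grm4 was level, at 107 ± 4.51 CPM and 107 ± 8.83 CPM (SD, n = 4 each), with a 95% interval of the log2 fold change from -0.16 to 0.17. Grm7 was at 42.5 ± 10.3 CPM in saline rats and 37.3 ± 6.84 CPM in METH rats (SD, n = 4 each), and its log2 fold change of -0.19 was -0.05 without saline rat 3. Grm2 and Grm8 were read 28 to 92 and 9 to 33 times per rat, and the 95% interval of the log2 fold change was wide, from -0.81 to 0.90 for Grm2. For Grm8 it ran from -0.71 to 1.29.

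The transmembrane AMPA receptor regulatory proteins (TARPs), which carry AMPA receptors to the synapse and slow their closing, were uneven. Cacng2, or stargazin, was at 14.7, 15.4, 16.3 and 16.5 CPM in saline rats 1 to 4 and at 11.3, 13.1, 11.1 and 15.2 CPM in METH rats 1 to 4. METH rat 4 alone reached the saline range. For Cacng2 the log2 difference was -0.31 (standard error 0.13, unadjusted p = 0.0321, FDR = 0.403, quasi-likelihood test; exact permutation test, two-sided p = 0.0571). Cacng7, a TARP of another subgroup, was at 74.8, 83.0, 77.1 and 75.9 CPM in saline rats 1 to 4 and at 83.7, 90.3, 88.3 and 86.1 CPM in METH rats 1 to 4. Every METH rat was above every saline rat, by at least 0.653 CPM. Its log2 fold change was 0.16 (standard error 0.07, 95% interval 0.01 to 0.32), or 1.12 times the saline level (unadjusted p = 0.0381, FDR = 0.424, quasi-likelihood test; exact permutation test, two-sided p = 0.0286). Cacng3, which had the most reads of the family, was at 109.6, 99.6, 116 and 106 CPM in saline rats 1 to 4 and at 109, 104, 95.7 and 102 CPM in METH rats 1 to 4. The groups overlapped, and the interval of its log2 fold change was narrow (-0.23 to 0.09). Cacng4, Cacng5 and Cacng8 had log2 fold changes of 0.10, 0.12 and 0.10, with FDRs of 0.758, 0.884 and 0.723 in the quasi-likelihood test.

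Of the other auxiliary subunits, the cornichon Cnih2, which helps AMPA receptors leave the endoplasmic reticulum and keeps them open longer, was at 621, 617, 506 and 531 CPM in saline rats 1 to 4 and at 604, 651, 839 and 668 CPM in METH rats 1 to 4. METH rats 2, 3 and 4 were above every saline rat and METH rat 1 was inside the saline range. For Cnih2 the log2 difference was 0.28 (standard error 0.10, unadjusted p = 0.0187, FDR = 0.348, quasi-likelihood test), and 0.17 without METH rat 3. Its relative Cnih3 averaged 4.38 ± 1.37 and 3.51 ± 0.532 CPM (SD, n = 4 each). Neto1 and Neto2, which bind kainate receptors, had log2 fold changes of -0.04 and 0.03 with intervals from -0.32 to 0.24 and from -0.22 to 0.28.

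**Figure D3:**
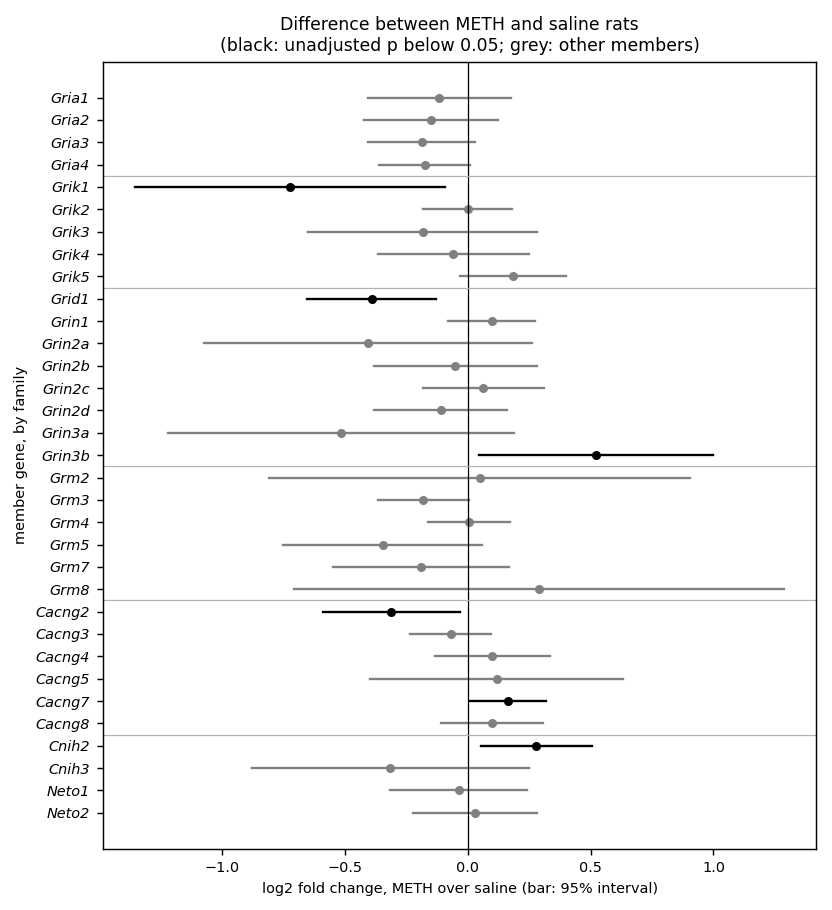
Log2 fold change of METH over saline for each of the 33 members with its 95% interval, in black for an unadjusted p below 0.05 and in grey for the others. Most intervals include zero, the 4 AMPA receptor genes all lie left of it without passing the test, and the widest intervals belong to genes with few counts or a large spread between rats, such as Grm8, Grm2 and Grin3a.

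In several members a pair of rats marked the ends of the range. Saline rat 3 had the highest level of 13 members (39.4%, against 18.2% of all genes tested), and METH rat 3 had the lowest level of 12 members (36.4%, against 22.3%). For 10 members these rats were at opposite ends. In 7 of them (21.2%, against 8.47% of all genes tested) saline rat 3 was highest and METH rat 3 lowest (Gria2, Grik1, Grid1, Grm3, Grm5, Grm7 and Cacng3), and in 3 (9.09%, against 7.57%) the order was turned (Grik5, Grin2c and Cnih2). This comparison was chosen after the values were seen and carries no test. The summed level of the AMPA receptor genes was 1176 CPM in saline rat 3, 763 CPM in METH rat 3 and between 851 and 1112 CPM in the other rats. Without METH rat 3, 1 of the 33 members had an unadjusted p below 0.05 in the quasi-likelihood test, and 911 of all 12112 genes tested did. Without saline rat 3 it was also 1 member (and 1098 of 12086 genes), and without both 0 (and 963 of 12031). For the 10 members with these rats at opposite ends, leaving both out moves the difference against its direction in any case. With both left out the log2 fold change of Grid1 was -0.22, that of Cnih2 0.12 and that of Grin3b 0.32. Of the members, 14 in place of 20 were then negative, and the median over all genes tested was -0.0028 in place of -0.0055.

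**Figure D4:**
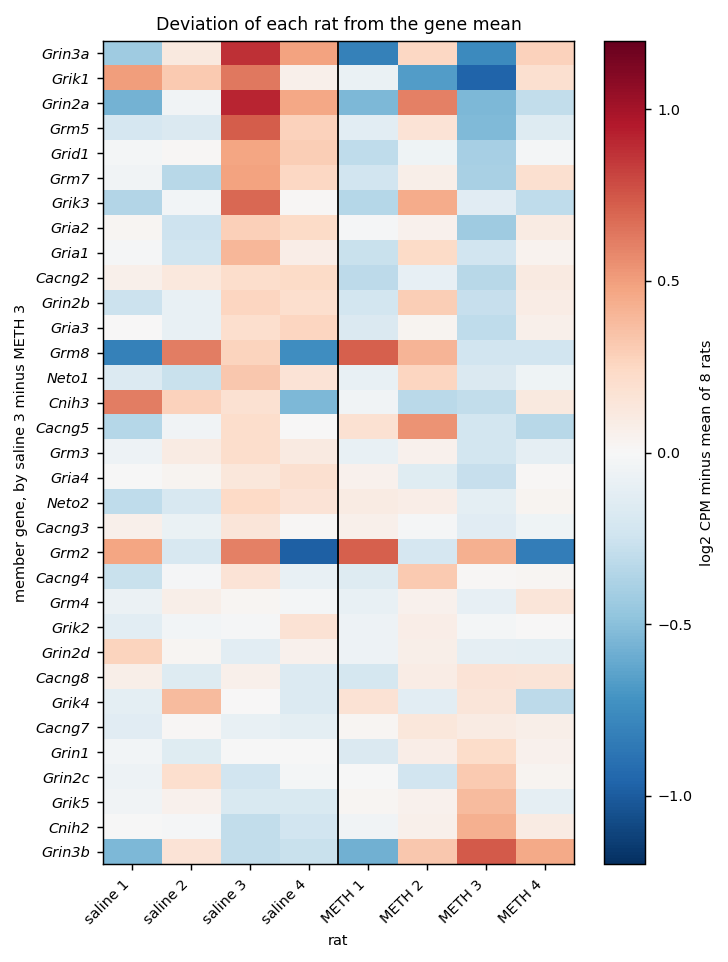
Deviation of each rat from the mean of all 8 rats (log2 CPM) for the 33 members, ordered by saline rat 3 minus METH rat 3. The columns of these rats show opposite colours at both ends of the list, which follows from the ordering.

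Among other genes of the glutamate synapse, Arc and Nptx2 were called higher in METH rats. Of 25 tested genes for scaffolds and kinases, 1 was called higher and 0 lower. Of 23 tested genes for receptor assembly and synaptic organizers, 1 was called higher and 0 lower. Of all genes tested, 0.449% were called higher and 0.0666% lower. The lists were chosen with earlier results of these data known, so their shares cannot show an excess over all genes. An unadjusted p below 0.05 was found for 2 of the 25 (8.0%) and for 6 of the 23 (26.1%, 4 higher and 2 lower), against 11.1% of all genes tested. Of 15 tested genes for glutamate release, uptake and metabolism, 0 were called, and 0 by DESeq2, which gave no adjusted p for 1 of them, the likelihood ratio test or limma-voom, and 0 had an unadjusted p below 0.05. Arc, an immediate early gene whose protein draws AMPA receptors out of the membrane, was at 228, 116, 75.8 and 99.3 CPM in saline rats 1 to 4 and at 469, 307, 485 and 547 CPM in METH rats 1 to 4. Every METH rat was above every saline rat, and Arc rose with a log2 fold change of 1.80 (FDR = 0.00731, standard error 0.28, quasi-likelihood test). Nptx2, a secreted pentraxin that gathers AMPA receptors at the synapse, was at 38.4, 34.4, 36.5 and 22.8 CPM in saline rats 1 to 4 and at 51.0, 60.0, 70.9 and 53.7 CPM in METH rats 1 to 4. It rose by 0.83 in log2 (standard error 0.15, FDR = 0.0230, quasi-likelihood test), and its FDR was 0.0741 without METH rat 3 and 0.0688 without saline rat 2. Grasp, or tamalin, a scaffold of group I metabotropic receptors, was at 87.7, 87.0, 103 and 108 CPM in saline rats 1 to 4 and at 111, 141, 154 and 149.9 CPM in METH rats 1 to 4, without overlap. With a log2 fold change of 0.53 it was not called by the quasi-likelihood test (FDR = 0.0566) and was called by DESeq2 (FDR = 0.00132) and the likelihood ratio test (FDR = 0.00119). Abhd12, a lipid hydrolase, was higher in every METH rat than in any saline rat (264 ± 17.8 against 229 ± 5.94 CPM, SD, n = 4 each) and was not called (FDR = 0.298, quasi-likelihood test).

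**Figure D5:**
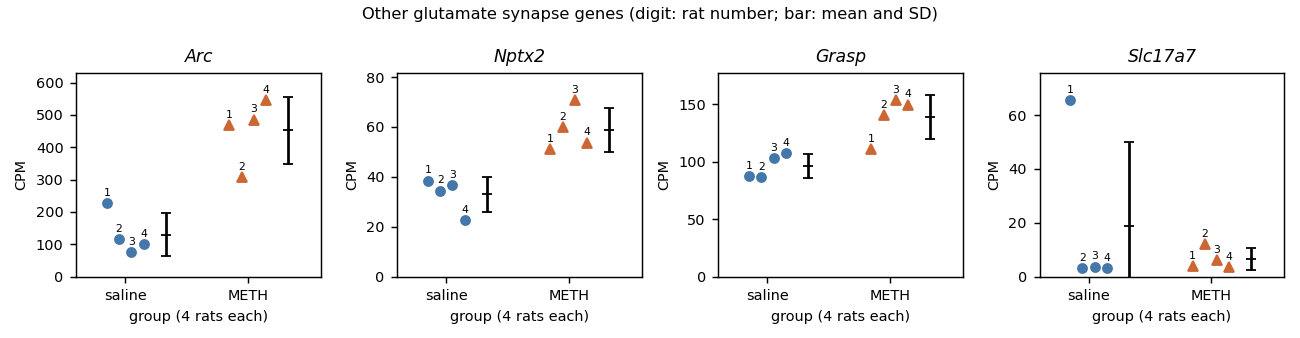
CPM of Arc, Nptx2, Grasp and the vesicular glutamate transporter Slc17a7 in each rat, with the rat number beside each point and the mean and SD (n = 4) as a bar, drawn from 0 upwards. The METH rats stand above the saline rats for Arc, Nptx2 and Grasp, and saline rat 1 stands alone at 65.8 CPM for Slc17a7, where the other 7 rats lie between 3.12 and 12.2 CPM.

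Promoter sequences of the rat assembly GRCr8 from RefSeq, 250 bases before and 50 after an annotated start, were matched by symbol for 22 of the 34 members. These promoters had a median GC content of 60.3%, against 51.7% over 33469 promoters of the table. Both strands were searched for the CRE bound by CREB (TGACGTCA), for its core TGACG, for the AP-1 motif (TGANTCA) and for the GC box (GGGCGG). The CRE letters contain the core. The CRE was in 0 of the 22 (1.83% of all promoters), the core in 2 (9.09%, against 21.2%), the AP-1 motif in 0 (against 7.33%) and the GC box in 10 (45.5%, against 33.1%). The 4 sequences shown are those of the 3 members with an unadjusted p below 0.05 that had an entry, and of Grm5, the metabotropic gene with the most reads. Capitals mark GC boxes, of which Cnih2 had 3 and the others 0. A match or its absence describes the letters of this window only, since a gene may start elsewhere.
Cnih2, chr1:211834388-211834687, minus strand: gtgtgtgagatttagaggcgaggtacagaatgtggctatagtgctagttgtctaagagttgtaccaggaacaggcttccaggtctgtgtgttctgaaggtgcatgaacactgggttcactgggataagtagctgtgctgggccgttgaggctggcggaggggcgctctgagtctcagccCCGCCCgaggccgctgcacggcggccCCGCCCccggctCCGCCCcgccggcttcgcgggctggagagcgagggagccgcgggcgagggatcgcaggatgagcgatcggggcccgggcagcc
Cacng2, chr7:111577708-111578007, minus strand: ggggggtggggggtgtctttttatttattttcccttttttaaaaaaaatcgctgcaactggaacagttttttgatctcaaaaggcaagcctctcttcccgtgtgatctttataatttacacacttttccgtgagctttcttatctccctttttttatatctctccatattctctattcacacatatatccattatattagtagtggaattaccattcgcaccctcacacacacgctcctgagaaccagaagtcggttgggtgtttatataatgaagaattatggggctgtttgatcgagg
Grik1, chr11:41056454-41056753, minus strand: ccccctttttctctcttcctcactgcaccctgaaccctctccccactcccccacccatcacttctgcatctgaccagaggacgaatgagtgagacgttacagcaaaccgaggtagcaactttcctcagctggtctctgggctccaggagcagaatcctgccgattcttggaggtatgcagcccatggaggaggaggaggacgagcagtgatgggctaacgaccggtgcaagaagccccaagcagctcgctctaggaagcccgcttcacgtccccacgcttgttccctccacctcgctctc
Grm5, chr1:150733503-150733802, plus strand: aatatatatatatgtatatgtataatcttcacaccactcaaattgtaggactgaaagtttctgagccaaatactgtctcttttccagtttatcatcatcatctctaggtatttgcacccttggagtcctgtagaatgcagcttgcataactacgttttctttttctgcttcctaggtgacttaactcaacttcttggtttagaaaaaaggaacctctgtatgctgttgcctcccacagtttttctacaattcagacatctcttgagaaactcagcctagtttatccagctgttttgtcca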

How the data were processed

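Poly(A) RNA of the striatum of 8 rats was sequenced in pairs of reads. Per the labels, the authors removed adapters (cutadapt 1.18), mapped the reads to rn6 (STAR 2.7.0e) and made gene counts (featureCounts, Subread 1.6.4). They deposited raw counts per gene symbol, 1 column per rat, without pooling. The annotation and the treatment of multimapping reads are not given in the sources used here, and the kit does not mark strand, so that overlapping genes cannot be told apart. Columns were assigned to rats by the group and number in their names.

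The tools were edgeR 4.0.16, DESeq2 1.42.0 and limma 3.58.1 in R 4.3.3. Low genes were removed by filterByExpr (minimum count 10), and the rest were scaled by TMM (factors 0.956 to 1.02) and tested over the whole table by the quasi-likelihood test without covariates. A call needed a mean log2 CPM above 1 and an FDR below 0.05. CPM uses the TMM-scaled totals, and log2 CPM a prior count of 2. Standard errors are the fold change divided by the square root of F, and intervals use the moderated degrees of freedom. Exact permutation tests used all 70 labelings. The fit was tested on simulated data.

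The members, the gene lists and the tests were chosen with earlier results of these data known. Values in every rat are given for members with an unadjusted p below 0.05, without overlap between groups or with the most reads of their family. Of the synapse lists, values are given for genes called by any tool or without overlap, and Slc17a7 was added after its values were seen. Alternatives were other scalings, filters, tests and call thresholds, each rat left out, and a replicate block on the rat number. Same-numbered rats are different animals, and nothing in the labels says more than that each rat is a separate sample. Depth and 4 rats per group limit the precision.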

Additional observations from a re-analysis of the deposited data

Results flagged for a closer look

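Each group of 4 rats was examined for a rat far from the others in log2 CPM, for the 33 members and for Arc, Nptx2, Grasp and Slc17a7. Of 74 groups, 1 (1.35%) had a gap larger than Dixon's 95% value, where chance gives about 1 in 20. The flagged group was that of Slc17a7, the vesicular glutamate transporter of cortical neurons, in saline rats. Slc17a7 was added after its values were seen, so its flag was known beforehand. No group of the other genes was flagged. In saline rat 1, Slc17a7 had a gap to the nearest saline rat of 0.948 of the range of the group. It had 1198 counts there, against 64 to 76 in the other saline rats, and its log2 fold change was -1.54 with an FDR of 0.509 by the quasi-likelihood test. Neurod6 (66 counts against 0 to 13 in the other rats), Neurod2 and Tbr1 were highest in the same rat, while Fezf2 and Cux2 were at similar levels in others. Without saline rat 1, 0 members were called, and 58 of all 12100 genes tested were. In the quasi-likelihood test, 7 members and 1394 of all genes tested then had an unadjusted p below 0.05. With all rats these counts were 6 and 1338. The FDR of Grid1 without saline rat 1 was 0.204 by the same test.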

How the results depend on the processing

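No member was called under any of the 17 alternatives tried, with the lowest FDR of a member at 0.0743 (Grin3b without METH rat 1, quasi-likelihood test). The number of all genes called was 62, and 186 with DESeq2, 170 with the likelihood ratio test, 37 with the replicate block and 37 without METH rat 3 and saline rat 3 together, an alternative added after the values were seen. It lay between 37 and 70 when a single rat was dropped. Deviations from the group mean correlated between -0.20 and 0.04 for rats with equal numbers, and 1 of 4 saline rats correlated best with its own number. These correlations cannot show whether rats with equal numbers were handled together. Of the 33 members, 20 kept their sign in all 16 fits and 13 did not. With all rats, Grik2 turned to 0.00022 with limma-voom and 0.0016 with the replicate block, and with total counts Grm4 turned to -0.031 and Neto2 to -0.0071. Without both rats numbered 3, an alternative that leaves 3 rats a group, the log2 fold change turned to 0.068 for Gria1, 0.026 for Gria2, 0.0014 for Grik2, 0.095 for Grik3, 0.11 for Grin2b, -0.10 for Grin2c, 0.046 for Grm7 and 0.12 for Neto1. With 1 rat dropped it ranged from -0.22 to 0.0092 for Gria1, from -0.042 to 0.059 for Grik2, from -0.40 to 0.064 for Grik3, from -0.13 to 0.074 for Grik4, from -0.17 to 0.027 for Grin2b, from -0.040 to 0.14 for Grin2c, from -0.22 to 0.27 for Grm2, from -0.046 to 0.037 for Grm4, from -0.080 to 0.24 for Cacng5, from -0.14 to 0.071 for Neto1 and from -0.059 to 0.12 for Neto2. The cause of these changes was not tested. Grasp was also called in the likelihood ratio test, with every gene that had at least 1 count and without METH rat 1. Low counts limit Grm2, Grm8 and Grik1.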
